A study of Mus musculus with 2 samples.

Results

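Adriamycin-only gene-end peaks are DPPA2 peaks called after adriamycin, with no overlapping peak in the untreated library, at an end of a single protein-coding gene. A peak was taken when its fold enrichment was below 9, when it shared no base with an untreated peak, and when its summit lay within 1000 bp of either end of exactly 1 gene. This gave 2172 of the 16229 peaks in the adriamycin list (13.4%), on chromosomes 1 to 19 and X, at 2122 of 21887 protein-coding genes (9.70%). The list of untreated cells held 7043 peaks.

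DPPA2 was mapped by chromatin immunoprecipitation and sequencing (ChIP-seq) with 1 antibody in R1/E mouse embryonic stem cells, a cultured line described in the series' design as p53+/+, kept on gelatin with serum and leukemia inhibitory factor. Both libraries carry the same batch label. The adriamycin group is 1 library from cells given the drug for 8 h, a treatment labelled as induction of apoptosis. The untreated group is 1 library from WT control cells. With 1 library a group there is no test between the groups and no measure of replicate spread, so each difference below is a difference between those libraries and intervals cover counting error only.

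DPPA2 binds DNA through a SAP domain and works as a heterodimer with DPPA4. In mouse embryonic stem cells the pair is known for occupying CpG-rich gene starts, many of them of developmental and germline genes, and for keeping part of them free of DNA methylation. CpG islands, where the CpG dinucleotide has escaped loss by deamination, cover the starts of most broadly expressed genes. Adriamycin (doxorubicin) intercalates into DNA and traps type II topoisomerases, which leaves double-strand breaks and activates p53.

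Gene-start sequences show what most of these genes share and where one group departs from it. RefSeq windows (GRCm38.p6, the same build as mm10) run from 250 bases before to 50 bases after a listed transcription start, which can lie inside the outermost base of the gene. Where a gene has several windows, the one nearest the summit is printed. The first 8 below have the highest −log10 q among the pathway list genes, genes of the 6 leading families and top 12 peaks whose summit falls inside such a window. Fzd10 was added after its values were seen because Frizzled receptors carried these peaks at the highest share of any family of at least 10 genes (a count that was lower in stricter lists, as given below), and Krt5 because keratins carried them at CpG-poor starts. Capitals mark CG dinucleotides.
Tcf7: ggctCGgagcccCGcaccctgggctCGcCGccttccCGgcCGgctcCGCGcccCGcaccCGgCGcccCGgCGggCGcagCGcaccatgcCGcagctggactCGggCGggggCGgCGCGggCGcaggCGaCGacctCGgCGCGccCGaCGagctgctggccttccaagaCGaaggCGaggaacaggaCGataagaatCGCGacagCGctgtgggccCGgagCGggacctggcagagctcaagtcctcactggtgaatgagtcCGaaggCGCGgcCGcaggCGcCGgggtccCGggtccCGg
Hdac2: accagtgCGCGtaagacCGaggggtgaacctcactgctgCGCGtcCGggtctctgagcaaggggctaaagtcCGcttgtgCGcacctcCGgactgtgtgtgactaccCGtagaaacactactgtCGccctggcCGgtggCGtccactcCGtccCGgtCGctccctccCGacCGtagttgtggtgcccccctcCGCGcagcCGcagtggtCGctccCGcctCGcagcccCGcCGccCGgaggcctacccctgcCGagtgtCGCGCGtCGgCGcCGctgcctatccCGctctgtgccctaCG
Bcl2: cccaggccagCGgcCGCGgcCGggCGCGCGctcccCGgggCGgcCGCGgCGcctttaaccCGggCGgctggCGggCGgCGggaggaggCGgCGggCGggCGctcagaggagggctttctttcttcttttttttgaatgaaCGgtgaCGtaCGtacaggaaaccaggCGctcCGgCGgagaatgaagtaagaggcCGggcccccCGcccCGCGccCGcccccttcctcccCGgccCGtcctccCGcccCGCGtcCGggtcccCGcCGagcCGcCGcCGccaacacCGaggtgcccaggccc
Fbxo30: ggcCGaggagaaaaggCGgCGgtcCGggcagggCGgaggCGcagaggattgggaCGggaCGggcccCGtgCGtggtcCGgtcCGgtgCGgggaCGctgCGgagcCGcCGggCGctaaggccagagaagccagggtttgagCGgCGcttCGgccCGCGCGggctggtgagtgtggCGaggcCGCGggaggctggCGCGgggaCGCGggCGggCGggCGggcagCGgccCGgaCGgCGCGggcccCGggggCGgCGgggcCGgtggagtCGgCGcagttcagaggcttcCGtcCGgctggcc
Crebbp: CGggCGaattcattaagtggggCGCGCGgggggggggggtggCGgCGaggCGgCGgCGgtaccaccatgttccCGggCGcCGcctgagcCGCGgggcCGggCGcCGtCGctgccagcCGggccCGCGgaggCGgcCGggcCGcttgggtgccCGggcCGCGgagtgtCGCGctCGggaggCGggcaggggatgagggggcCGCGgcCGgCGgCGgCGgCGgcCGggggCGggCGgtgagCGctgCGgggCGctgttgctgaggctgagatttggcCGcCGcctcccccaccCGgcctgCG
Dapk1: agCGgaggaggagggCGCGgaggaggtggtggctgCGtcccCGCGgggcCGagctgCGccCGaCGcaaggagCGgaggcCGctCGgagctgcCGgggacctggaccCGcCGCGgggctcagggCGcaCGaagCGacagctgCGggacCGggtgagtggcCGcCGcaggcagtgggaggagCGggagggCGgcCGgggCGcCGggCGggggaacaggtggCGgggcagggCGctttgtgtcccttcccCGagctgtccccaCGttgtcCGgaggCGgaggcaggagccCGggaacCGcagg
Nobox: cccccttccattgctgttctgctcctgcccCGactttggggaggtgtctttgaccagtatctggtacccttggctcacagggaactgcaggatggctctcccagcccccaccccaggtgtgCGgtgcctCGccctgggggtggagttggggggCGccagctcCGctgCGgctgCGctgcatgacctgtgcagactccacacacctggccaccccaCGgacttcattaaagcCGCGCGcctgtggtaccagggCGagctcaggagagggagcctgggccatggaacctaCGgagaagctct
Acvr2a: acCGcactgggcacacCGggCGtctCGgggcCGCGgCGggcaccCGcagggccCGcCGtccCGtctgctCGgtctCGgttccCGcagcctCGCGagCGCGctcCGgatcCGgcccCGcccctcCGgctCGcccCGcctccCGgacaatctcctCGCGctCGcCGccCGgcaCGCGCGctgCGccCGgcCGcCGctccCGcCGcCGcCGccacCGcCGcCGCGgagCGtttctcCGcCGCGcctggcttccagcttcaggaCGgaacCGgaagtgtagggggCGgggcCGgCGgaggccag
Fzd10: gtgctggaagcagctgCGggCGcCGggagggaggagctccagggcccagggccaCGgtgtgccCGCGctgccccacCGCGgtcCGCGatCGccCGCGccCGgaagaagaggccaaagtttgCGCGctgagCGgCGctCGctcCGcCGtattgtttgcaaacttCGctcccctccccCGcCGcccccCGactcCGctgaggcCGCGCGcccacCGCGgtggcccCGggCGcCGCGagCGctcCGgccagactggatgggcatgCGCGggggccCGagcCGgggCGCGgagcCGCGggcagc
Krt5: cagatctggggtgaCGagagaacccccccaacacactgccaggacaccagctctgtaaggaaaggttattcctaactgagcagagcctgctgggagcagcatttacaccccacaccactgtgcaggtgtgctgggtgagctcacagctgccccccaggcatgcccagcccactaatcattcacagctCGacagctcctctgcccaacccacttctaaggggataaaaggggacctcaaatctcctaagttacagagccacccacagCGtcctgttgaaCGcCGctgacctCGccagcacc

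Each of these windows is written 5′ to 3′ on the gene's own strand. Tcf7, a transcription factor gene of Wnt signalling, has its window at chr11:52282965-52283264 (minus strand) with 45 CpG, and the summit at base 87. Hdac2, a histone deacetylase gene, has 36 CpG at chr10:36974294-36974593 (plus strand), with the summit at base 246. The window of Bcl2, the founding anti-apoptotic gene, at chr1:106714241-106714540 (minus strand) holds 44 CpG, and its summit is base 188. All 3 are CpG-rich by the measure used below.

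Fbxo30, an F-box protein gene, has 47 CpG at chr10:11281337-11281636 (plus strand) and the summit at base 258. Crebbp, a histone acetyltransferase gene, has 49 CpG at chr16:4213355-4213654 (minus strand) and the summit at base 255. Dapk1, which encodes death-associated protein kinase, has 38 CpG at chr13:60601961-60602260 (plus strand) and the summit at base 197. Acvr2a, an activin receptor gene, is the densest of the set with 54 CpG at chr2:48813859-48814158 (plus strand), and its summit is base 67. Fzd10 has 45 CpG at chr5:128600856-128601155 (plus strand), with the summit at base 248.

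The other two starts are poorer in CpG. Nobox, an oocyte transcription factor gene, has 13 CpG at chr6:43309505-43309804 (minus strand), with the summit at base 178. Krt5, a basal epithelial keratin gene, has 6 CpG at chr15:101712856-101713155 (minus strand), and its summit lies further inside the gene than the window reaches. The GC box (GGGCGG, either strand) occurs in all of these windows but those of Nobox and Krt5.

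The first question was how strong these peaks are. Fold enrichment is the authors' deposited ratio of summit over local background, and it served to choose the peaks, so the values that follow are a description. Adriamycin-only gene-end peaks had a median fold of 4.63 (quartiles 4.15 and 5.23, range 2.82 to 8.82), against 5.46 (4.75 and 6.43) for the 832 adriamycin peaks at 1 gene end that overlapped an untreated peak, called shared below, which lay at 822 genes (3.76% of all). Their summits were covered by a median of 13 fragments (quartiles 11 and 15, range 6 to 53), against 16 (14 and 20) for shared peaks. Most thus had a low fold and few fragments.

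Their median width was 303 bp (quartiles 234 and 403), against 446.5 bp for shared peaks. A q of at most 1e-05 was reached by 714 (32.9%, interval 30.9 to 34.9%), against 586 of 832 shared peaks (70.4%, 67.2 to 73.5%). The nearest untreated summit lay a median of 112466 bp away, and within 1000 bp for 52 peaks (2.39%). Most of these places therefore had no untreated peak anywhere near, and a few stood beside an untreated peak that they did not overlap.

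**Figure D1:**
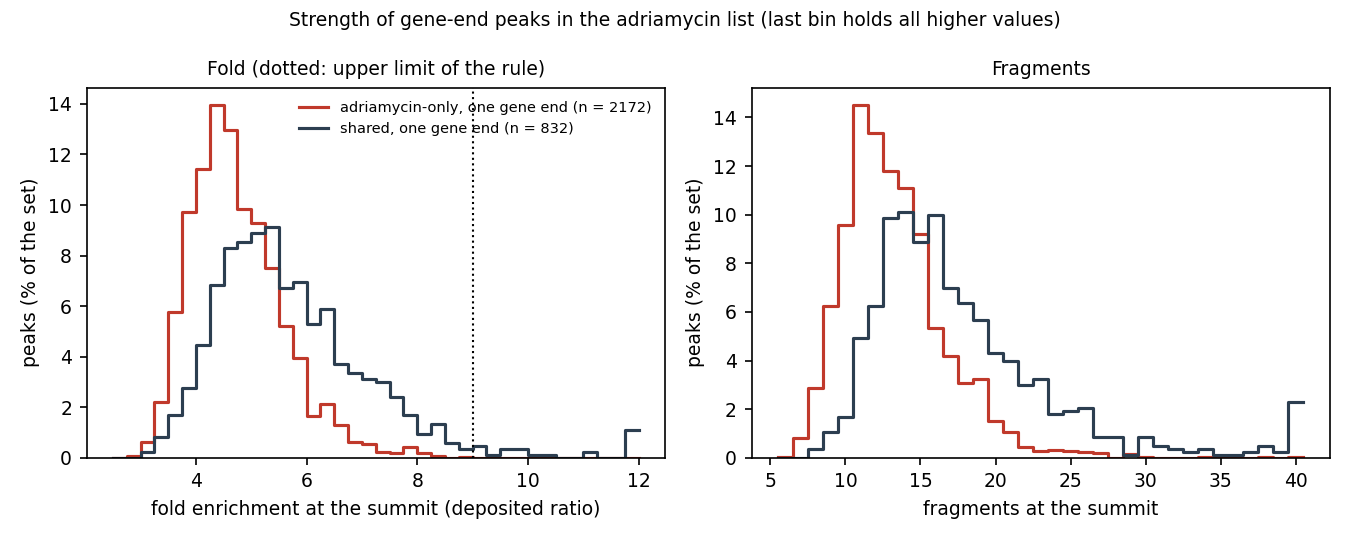
Distribution of fold enrichment (left, deposited ratio) and of fragments at the summit (right) for the 2172 adriamycin-only and 832 shared gene-end peaks of the adriamycin list, as percent of each set; the dotted line is the fold limit of 9. The adriamycin-only curve peaks lower on both axes, with medians of 4.63 and 13 fragments against 5.46 and 16.

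The fold limit mattered for 2 peaks. Just below it stood Alg9 (8.82), Krt5 (8.47) and Wls (8.38). Just above it, and left out, were Spin2d (9.31) and Gm40864 (9.86). At the distance limit the last peaks included were at Ky (999 bp) and Strn3 (997 bp), and the first left out were at Nfkb1 and Dchs1 (1001 bp each).

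The 12 peaks with the highest −log10 q were a mixed set of genes in which keratins appeared 3 times. The highest was at Slc15a3, a lysosomal peptide transporter gene, where the peak at chr19:10858755-10859164 lay 980 bp outside the gene with a fold of 7.92 and 34 fragments (23.5 to 47.5). Krt5 followed with a peak at chr15:101712469-101712871, 207 bp inside the gene start, with a fold of 8.47 and 29 fragments (19.4 to 41.6), and its nearest untreated summit was 8203 bp away. Alg9, a mannosyltransferase gene of N-glycan assembly, had a fold of 8.82 and 26 fragments (16.98 to 38.1) at chr9:50775267-50775861, 172 bp inside its start. These are the upper end of the set in both measures.

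Mrpl15, of the mitochondrial ribosome, had a fold of 8.05 at chr1:4785387-4785834, and Trappc9, of a vesicle tethering complex, had 8.13 at chr15:73060662-73061090. Tspyl5 had 8.22 at chr15:33687434-33687751. Ctcfl, the testis paralogue of the insulator protein gene Ctcf, had 7.34 at chr2:173119094-173119514. Each of these summits was inside its gene, between 212 and 458 bp from an end. Krt4 and Krt13, which encode the keratin pair of non-cornified squamous epithelium, had folds of 7.56 and 7.51, with 25 fragments each. Krt4 also had a shared peak at 1 gene end, and the untreated summit nearest to its adriamycin-only peak was 5440 bp away. Greb1l on chromosome 18 had 8.10 with 22 fragments (13.8 to 33.3).

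Cdh24, a cadherin gene, and Rnf126, a ubiquitin ligase gene, carried theirs at the far end. Cdh24 had a fold of 7.32 at chr14:54631993-54632534, 936 bp inside the gene. Rnf126 had 5.64 at chr10:79758654-79759143, with 38 fragments (26.9 to 52.2) over a local background of 5.92 fragments, and an untreated summit 2180 bp away. The background at Rnf126 stood above the median of 1.94 fragments, and its part in the result was not tested.

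The second question was which end of the gene carries the peak. The rule took either end, but it left out 246 adriamycin-only peaks near ends of 2 or more genes. Shares by end and by side of the end hold for the remaining peaks only. Strand came from the RefSeq gene-start table, which matched the genes of 1671 peaks. Of these, 1478 (88.4%, 86.8 to 89.9%) were at the gene start and 193 (11.6%, 10.1 to 13.2%) at the far end. Shared peaks had 573 of 657 at the start (87.2%, 84.4 to 89.7%), so the intervals overlap. The 263 untreated peaks at 1 gene end with no overlapping adriamycin peak had 177 of 209 at the start (84.7%, 79.1 to 89.3%). In all 3 sets most peaks with known strand were gene-start peaks.

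At gene starts most summits lay inside the gene. Of the 1478 summits, 1298 (87.8%, 86.04 to 89.4%) were inside the gene, and 846 (57.2%, 54.7 to 59.8%) were 100 to 500 bp inside. The median over all 1478, upstream summits included, was 256.5 bp inside (quartiles 116 and 446.75). Shared peaks had 523 of 573 inside (91.3%, 88.7 to 93.5%), and a median of 281 bp over all 573. Another 62 adriamycin-only summits (4.20%) were more than 250 bp upstream. These distances are from the outermost base of the gene, and a start listed in the sequence table lay within 10 bp of it for 827 of the 1478 (56.0%). Measured from the listed start nearest the outer end, a measure added after the values were seen, 1167 summits (79.0%, 76.8 to 81.0%) were downstream, against 476 of 573 shared summits (83.1%, 79.7 to 86.1%). The median over all summits at starts was then 173 bp downstream for adriamycin-only peaks and 207 bp for shared peaks. The median offset was thus downstream by either measure and smaller from the listed start. Both measures use the outer end or the listed start nearest it. Offsets from starts further inside the gene are therefore not covered.

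At the far end the summits were spread wider (median 464 bp inside the gene, quartiles 156 and 739), and 151 of 193 (78.2%, 71.7 to 83.8%) were inside the gene, against 63 of 84 shared peaks (75%, 64.4 to 83.8%). A start of any gene in the RefSeq table lay within 1000 bp of 17 of the 193 (8.81%, 5.22 to 13.7%), against 8 of 84 shared peaks (9.52%, 4.20 to 17.9%). The choice of peaks had already left out summits within 1000 bp of an end of another protein-coding gene. These low shares were therefore largely set in advance, and nothing is concluded from them. Among the far-end genes were Bbc3, Wls and Chd4, described below.

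**Figure D2:**
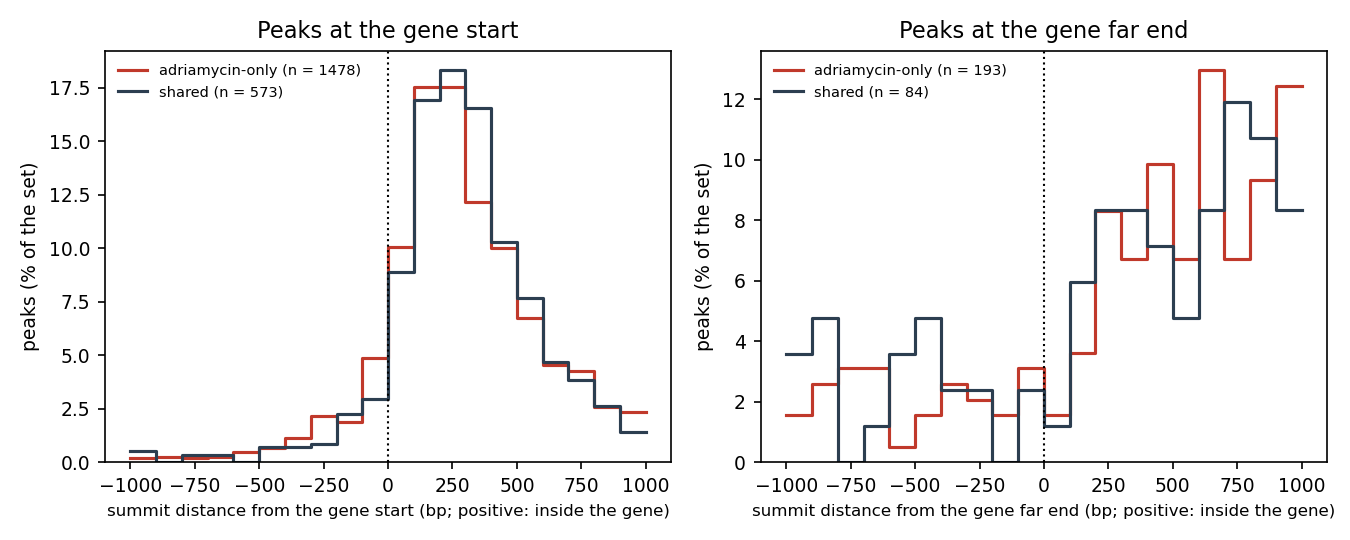
Distance of peak summits from the gene start (left) and the far end (right), in bp with positive values inside the gene, as percent of the adriamycin-only (1478 and 193) and shared (573 and 84) peaks, in steps of 100 bp. At starts both sets pile up 100 to 500 bp inside the gene (57.2% and 62.1% of peaks); at far ends both sets are spread wider.

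The third question was what the starts of these genes look like. CpG observed over expected compares the count of CG with that expected from C and G content, and above 0.6 a start is called CpG-rich here. The 1448 genes with an adriamycin-only peak at their start had a median of 0.796 (quartiles 0.616 and 0.944) and a GC content of 65.7%. All 17492 genes with a start sequence had a median of 0.577 (0.220 and 0.829) and 56.3% GC. CpG-rich starts made up 76.4% (74.1 to 78.5%) of the genes with a peak and 48.4% (47.6 to 49.1%) of all genes. The 572 genes with a shared peak at the start were alike in this, with a median of 0.808 and 75.9% CpG-rich (72.2 to 79.3%).

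The share of genes with such a peak was higher in each CpG quintile than in the one below it. Over all genes with a start sequence 8.28% had one at the start. From the quintile of genes with the lowest CpG to the highest, the shares were 1.23%, 3.97%, 8.66%, 12.09% and 15.4%, with intervals of 0.891 to 1.65% in the lowest and 14.3 to 16.7% in the highest. Shared peaks ran from 0.743% to 6.20% over the same quintiles. The 193 genes with a far-end peak had start sequences with a median of 0.562 and 47.7% CpG-rich, against the 48.4% of all genes.

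Gene length showed the same order. The shares with a peak at the start, from the shortest to the longest quintile, were 2.66% (2.15 to 3.25%), 5.00%, 7.29%, 10.1% and 16.3% (15.1 to 17.6%). Genes with an adriamycin-only peak had a median length of 34498 bp (quartiles 13717.5 and 87108.8), against 17169 bp (5671 and 44339) for all genes. Within CpG-rich starts the medians were 41504 bp for genes with a peak and 25194.5 bp for all. No input library was used here, and the part of base composition in read coverage was not tested.

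**Figure D3:**
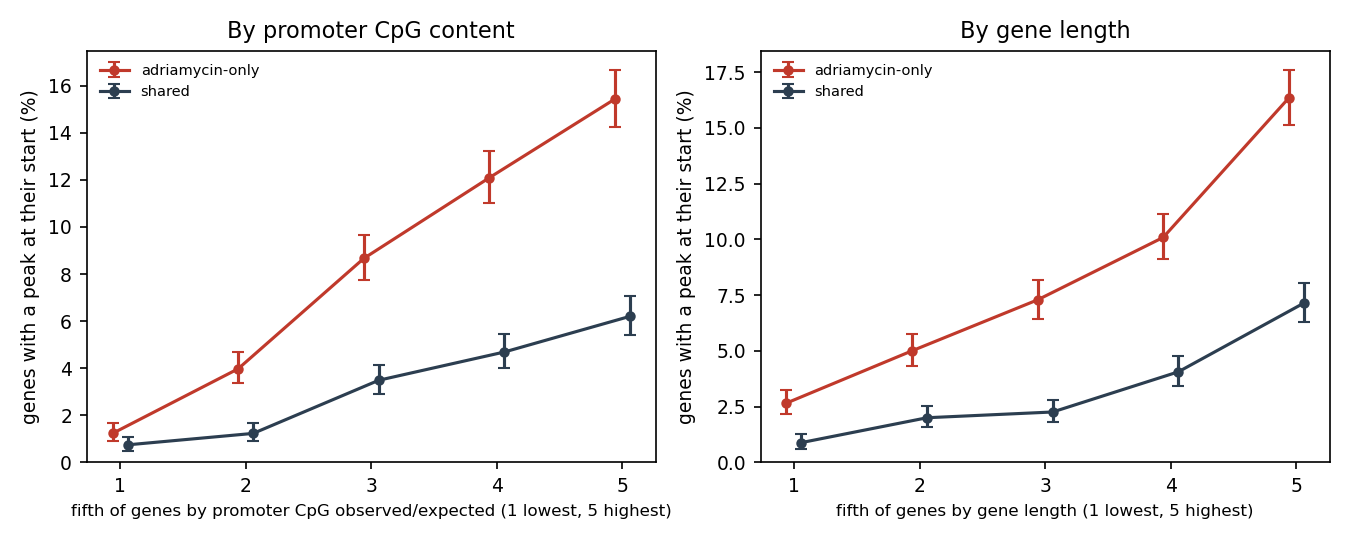
Percent of genes with an adriamycin-only or shared peak at their start, in quintiles of promoter CpG observed over expected (left) and of gene length (right), with 95% exact binomial intervals. Both sets climb across the quintiles, the adriamycin-only set to 15.4% and 16.3% in the highest.

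Short core motifs were searched on either strand of the start windows. The GC box occurred at 72.6% (70.2 to 74.9%) of starts with an adriamycin-only peak and 46.3% of all starts. Within CpG-rich starts the shares were 81.3% (78.9 to 83.5%) and 74.1% (73.2 to 75.1%). The ETS core (CCGGAA) went the other way within CpG-rich starts, at 22.0% (19.6 to 24.5%) against 31.0% (30.1 to 32.05%), and so did the CCAAT box (CCAAT), at 31.0% (28.3 to 33.8%) against 37.9% (36.9 to 38.96%), while for the NRF1 core (TGCGCA) the intervals overlap, at 14.5% (12.4 to 16.7%) against 17.1% (16.3 to 17.9%). CpG-rich starts with a shared peak held the GC box, ETS core, CCAAT box and NRF1 core in 82.0%, 21.9%, 30.6% and 15.0%. These are letters found in the windows and not sites.

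The TATA box (TATAAA) was present in 6.91% (5.65 to 8.34%) of starts with a peak and 13.3% of all, and in 4.97% and 5.85% within CpG-rich starts, where the intervals overlap. For the E-box (CACGTG), the CRE core (TGACGT), the YY1 core (AAGATGG), the ZBTB33 core (CTCGCGA) and both E2F cores (TTTCGCG and TTTGGCG) the CpG-rich shares were 11.2%, 11.8%, 5.70%, 4.52%, 1.72% and 2.44% in genes with a peak. In all genes they were 11.5%, 13.5%, 7.19%, 5.26%, 2.18% and 2.86%. The interval of the genes with a peak reached the value of all genes for the E-box, CRE, YY1, ZBTB33 and both E2F cores.

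The fourth question was which genes carry the peaks. Of all protein-coding genes 9.70% did, and of those with a start sequence 9.32%. The share was 14.1% for CpG-rich starts and 4.85% for the others. Of the 621 genes of 18 pathway lists 100 did (16.1%, 13.3 to 19.2%). The share exceeded that of all genes in 16 lists, and the interval lay wholly above it in 5: Wnt receptors, germ cell regulators, TGF-beta, BMP and FGF signalling, chromatin modifiers and the cell cycle engine. Of the start sequences of list genes 72.0% were CpG-rich, against 48.4% of all start sequences. Only the Wnt receptor interval lay wholly above the 14.1% of genes with a CpG-rich start. The part of start composition in the list shares was not tested. These lists were chosen with earlier results known, so their counts are a description.

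Wnt receptors stood highest, with 9 of 20 genes (45.0%, 23.1 to 68.5%). Shared peaks lay at 3 genes of the list (Fzd8, Lgr4 and Ror2), against 3.76% of all genes. Untreated peaks with no overlapping adriamycin peak lay at 2 genes of the list, against 261 of all 21887 genes. Among the 9 genes are 6 of the 10 Frizzled genes, which encode the membrane receptors of Wnt ligands. That count was 2 when both lists were held to q values up to 1e-05, and 2 when they were held to folds from 5 up. It was 1 with lists of equal length and 3 with a window of 500 bp. The share of all genes in these settings was 4.63%, 4.58%, 2.45% and 7.74%, in that order. Fzd7 had the strongest peak, with a fold of 5.19 and 18 fragments at chr1:59482510-59482959, 553 bp inside its start. Fzd3 had 5.10 and 15 fragments, and there an untreated summit lay only 324 bp away without overlap. Fzd1 had 4.38, Fzd10 4.42, Fzd6 4.14 and Fzd2 3.85, with 10 to 13 fragments each, and their nearest untreated summits were 114246 to 551779 bp away.

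The co-receptors Lrp6 and Lrp5 had folds of 4.73 and 3.85, and the atypical receptor Ryk had 5.35 with 16 fragments. Of the ligand list 3 of 25 genes had a peak: Wls, the carrier that brings Wnt proteins to the cell surface, Wnt10a (5.09) and the Wnt enhancer Rspo1 (4.23). The Wls peak, with a fold of 8.38 and 16 fragments, lay 817 bp beyond the far end of the gene, so it is not at the Wls start. Inside the cell 5 of 28 genes had one: Tcf7 (5.65), the scaffold Axin1 (5.93), the ubiquitin ligase adaptor Btrc (5.00), the Dishevelled antagonist Nkd2 (4.23) and Sp5 (3.85, at its far end). The receptor level of the pathway thus held more of these peaks than the ligand level, 45.0% against 12%, with intervals that overlap (2.55 to 31.2% for ligands).

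The list of germ cell regulators followed, with 7 of its 24 genes (29.2%, 12.6 to 51.1%). Brdt, whose product reads acetylated histones in spermatogenic cells, stood at 7.97 with 21 fragments, 150 bp inside its start. Taf7l, a germ cell paralogue of a TFIID subunit gene, had 5.91, the oocyte factor gene Figla 5.30 and Tdrd3 5.00. Nobox (4.46), Tex101 (3.98) and Sohlh2 (3.62) were weaker. All 7 were at the gene start. The meiotic axis list had 3 of 29 (10.3%), namely Syce1 (5.28), Sycp3 (4.51) and Sycp2 (4.44), and the piRNA list 3 of 21 (14.3%), namely Tex19.1 (4.40), Piwil1 (4.30) and Piwil2 (3.73). Those shares stand close to the background of 9.70%.

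In TGF-beta, BMP and FGF signalling 11 of 45 genes had a peak (24.4%, 12.9 to 39.5%). Receptors were Acvr1, a type I BMP receptor gene (6.99, 18 fragments), Fgfr1 (5.49), Tgfbr3 (5.00), Acvr2a (4.43) and Bmpr1a (4.31). The Smad transducers Smad4 (5.76), Smad9 (4.36) and Smad5 (4.05) had one, as did the inhibitor Spred1 (4.78). The ligand genes Fgf4 (3.82) and Bmp2 (3.57) had the lowest folds. In Notch and Hedgehog signalling it was 4 of 33 genes (3.40 to 28.2%): Gli2 (5.08), Gli3 (4.70), Ptch1 (4.04) and Notch1 (3.57). Shared peaks were found there at 5 genes of the list, against 3.76% of all genes.

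Of 60 chromatin modifier genes 14 had one (23.3%, 13.4 to 36.04%), and 5 had a shared peak (3.76% of all genes did), with Hdac4 in both counts. Among them Kdm1a, a histone demethylase gene, had a fold of 5.65 with 19 fragments, Hdac2 5.74, Kat6a 4.97 and Crebbp 4.78. Kat6a and Crebbp each had a second, weaker peak on the other side of the same end (3.78 and 3.87). The peaks at Chd4 (5.10) and Hdac4 (3.95) were at the far end, and the Hdac4 summit had an untreated summit 530 bp away. The DNA methylation list had 4 of 19 (21.1%, 6.05 to 45.6%): Tet2 (7.19, 20 fragments), the de novo methyltransferase gene Dnmt3b (5.48), the glycosylase gene Tdg (4.32) and Uhrf2 (4.04).

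The cell cycle list had 10 of 45 genes (22.2%, 11.2 to 37.1%), 9 of them with a CpG-rich start. Most act in the switch that controls entry into S phase: the pocket protein genes Rbl1 (6.25, 14 fragments) and Rbl2 (3.97), the transcription factors E2f1 (4.79), E2f2 (4.39), E2f6 (4.42) and E2f5 (4.31), Ccne1 (4.14) and the inhibitor Cdkn2c (4.93). Fzr1 (3.58) and Cdk7 (3.62) complete the list, Fzr1 at its far end.

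The p53 target list had 5 of 42 genes (11.9%, 3.98 to 25.6%), a share near the background. Bbc3, the gene of the BH3-only killer PUMA, stood at 6.31 with 24 fragments. Its peak was at the far end, 959 bp inside the gene, and not at the start. Plk2 had 6.20 at 469 bp upstream of its start, Perp 5.64, Trp53inp1 4.41 and Fbxw7 4.17. Apoptosis genes had 7 of 43 (16.3%, 6.81 to 30.7%), among them, besides Bbc3, Bcl2 (4.57, 63 bp upstream of its start), the BH3-only gene Bid (4.76), Endog (4.65), Dapk1 (4.85) and the caspase gene Casp6 (4.27).

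Of 50 DNA damage response genes 6 had one (12%, 4.53 to 24.3%). Top2b and Top1, which encode topoisomerases, had 5.41 and 4.80, and Top2b had a second peak of 3.67 upstream of its start. The break sensor gene Nbn had 5.26, Xpa of nucleotide excision repair 4.51, and the checkpoint genes Wee1 and Cdc25a 4.26 and 3.70. Pluripotency genes had 5 of 34 (14.7%), led by Tet2 and followed by Lin28b (4.72), Klf5 (4.70), Fgf4 and Klf2 (3.40). Imprinted genes had 4 of 30 (13.3%): Igf2r (5.43), Plagl1 (4.66), Grb10 (4.42) and Mest (3.96).

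Only 2 of the 18 lists were below the background. Developmental transcription factors had 3 of 60 (5.00%, 1.04 to 13.9%), namely Sox1 (4.14), Mixl1 (3.78) and Olig1 (3.74), although 75% of their starts were CpG-rich. Two-cell stage genes, which DPPA2 is known to control through Dux, had 0 of 26, which allows a share of up to 11.5% by a limit of 3 counts (exact interval up to 13.2%). None of their 17 start sequences was CpG-rich.

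**Figure D4:**
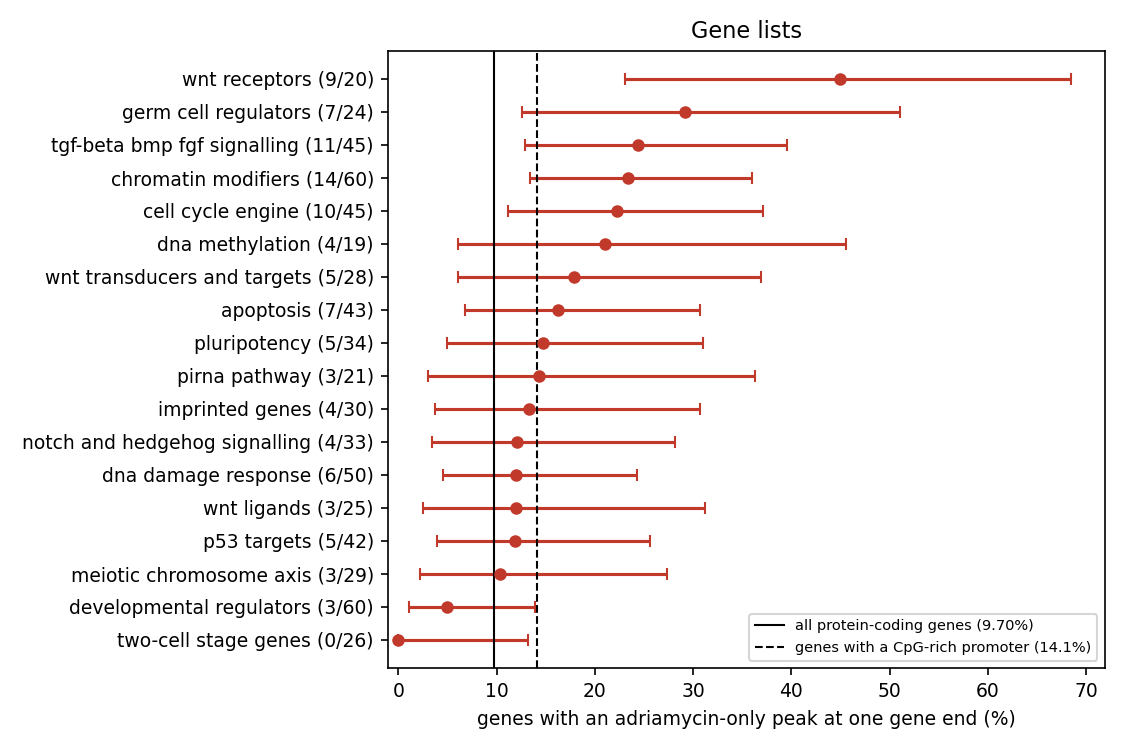
Percent of genes with an adriamycin-only peak at one gene end in each of 18 gene lists, with 95% exact binomial intervals and counts beside the names; the solid line is all protein-coding genes (9.70%) and the dashed line genes with a CpG-rich start (14.1%). Wnt receptors stand highest at 45.0%.

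Families defined by gene symbol gave a wider view. Of 55 families of at least 10 genes 32 exceeded 9.70%, 7 had an interval wholly above it and 7 wholly below. Above were Frizzled receptors, semaphorins, myosins, keratins, F-box proteins, glycosyltransferases and RING finger genes. Below were cytosolic ribosomal proteins, complex I subunits, olfactory receptors, vomeronasal receptors, cytochromes P450, serpins and beta-defensins. Of the 7 above, only Frizzled receptors and keratins had an interval that also lay wholly above the 14.1% of genes with a CpG-rich start.

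Keratins, the intermediate filament proteins of epithelia, had 14 of 53 genes (26.4%, 15.3 to 40.3%). Of the 53 keratin genes 7 had a shared peak, with Krt4 in both counts, against 3.76% of all genes. Keratins thus stood above the share of all genes in shared peaks too. They departed from the rest in their starts: 3 of 36 keratin start sequences were CpG-rich, and of the 14 genes with a peak 8 had a start sequence, that of Krt7 alone being CpG-rich. Of the 9034 genes with a start sequence that is not CpG-rich 4.85% had a peak. The type II keratins of chromosome 15 were Krt5, Krt4, Krt81 (6.47), Krt1 (5.52), Krt80 (4.86), Krt73 (4.41) and Krt7 (3.57 and 3.44). The type I keratins of chromosome 11 were Krt13, Krt12 (5.76), Krt15 (5.00), Krt34 (4.61), Krt16 (4.58), Krt27 (4.44) and Krt14 (3.91). Krt5 and Krt14, and Krt4 and Krt13, pair in epithelial filaments.

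Semaphorins, guidance ligands, had 6 of 20 (30.0%, 11.9 to 54.3%), led by Sema7a (5.59), Sema3c (5.86), Sema4f (5.38) and Sema6b (4.15). Myosins with a Myo symbol had 7 of 25 (28.0%, 12.1 to 49.4%), among them Myo18a (4.83), Myo18b (4.84) and Myo6 (4.96). Dennd genes, exchange factors of Rab GTPases, had 4 of 16 (25.0%, 7.27 to 52.4%), with Dennd3 (5.76) and Dennd1a (5.41) the strongest. A shared peak was found at 5 of the 16, against 3.76% of all genes. Substrate-binding F-box subunits of SCF ubiquitin ligases had 17 of 78 (21.8%, 13.2 to 32.6%), with Fbxo4 (6.67), Fbxl5 (5.76), Fbxo28 (5.35) and Fbxl7 (5.68) at the top. Their folds reached down to 3.48 at Fbxl18.

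Families with mostly CpG-rich starts could be low. Of 80 cytosolic ribosomal protein genes, among the most transcribed of any cell, 1 had a peak (1.25%, 0.0316 to 6.77%), listed as Rpl32l, and of their 51 CpG-rich starts 0 did. Complex I genes had 0 of 49, which allows up to 6.12% by the same limit (exact interval up to 7.25%), with 35 CpG-rich starts among them. Both families carried no shared peak either. Peaks near ends of 2 genes were left out by the rule. An end with no other gene's end within 2000 bp was found at 64 of the 80 ribosomal and 39 of the 49 complex I genes. Over all genes it was 20198 of 21887, and the part of this in the low counts was not tested. Mitochondrial ribosomal proteins had 5 of 78 (6.41%, 2.11 to 14.3%). Several families with CpG-poor starts were low too: olfactory receptors had 9 of 1110 (0.811%), vomeronasal receptors 0 of 353, serpins 0 of 63 and beta-defensins 0 of 42. The limit of 3 counts allows these last 3 families up to 0.850%, 4.76% and 7.14%, and the exact interval up to 1.04%, 5.69% and 8.41%. Reads from similar members of such families can be split or lost, and the part of this in the low shares was not tested.

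**Figure D5:**
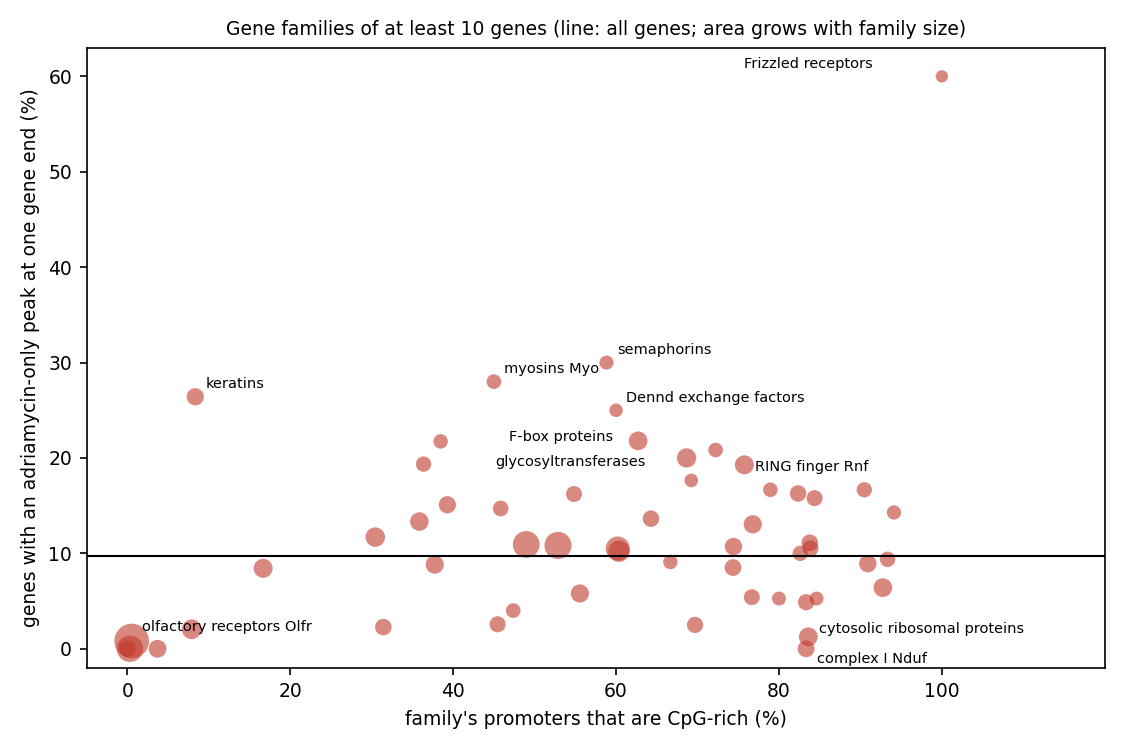
Each point is a gene family of at least 10 genes, placed by the percent of its start sequences that are CpG-rich (horizontal) and the percent of its genes with an adriamycin-only peak at one gene end (vertical); the line is all genes. Keratins have 26.4% with 8.33% CpG-rich starts, while complex I genes have 0 of 49 with 83.3%.

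The counts by list were lower with stricter peak lists. When both lists were limited to a q of at most 1e-05, 4.63% of all genes had an adriamycin-only peak, with 4 Wnt receptors, 5 germ cell regulators, 3 cell cycle genes, 6 chromatin modifiers, 4 genes of TGF-beta, BMP and FGF signalling, 6 F-box genes and 12 keratins. With the adriamycin list limited to its strongest peaks, as many as the untreated list holds, 2.45% of genes did, and the counts were 2, 3, 1, 4, 3, 4 and 7 in the same order. Keratins, with 53 genes, had the highest of these counts in both settings, but the groups run from 20 Wnt receptor genes to 78 F-box genes. The limit on q dropped untreated peaks too, so peaks with a weaker untreated counterpart entered the counts at that limit.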

How the data were processed

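Peak lists of 2 ChIP-seq libraries were used, 1 a group. Per the submitters' processing notes, FastQC 0.12.1, Bowtie2 2.5.1, SAMtools, MACS3 3.0.0b1, deepTools 3.5.1 and build mm10 were used; no calling command, filter or input control is given in the sources used here. The deposited fold is the authors' ratio of summit over local background, the authors' deposited −log10 of p and of q refer to the summit, and the deposited score is −log10 q times 10, cut to a whole number. A further deposited value gives the distance from peak start to summit.

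Peaks on other sequences (142 adriamycin, 126 untreated) were left out. Overlap meant at least 1 bp. Positions count from 1. Fragments at a summit were recovered from fold and −log10 p by a Poisson upper tail with a pseudocount of 1 (tolerance 0.001), which gave a whole number for all 2172 peaks; total read depth is unknown. Genes, strand and start sequences came from RefSeq GRCm38.p6 tables; start sequences matched 17492 of 21887 genes. For CpG and motifs 1 sequence window a gene was used, that nearest its outer end. Intervals are exact Clopper-Pearson, for fragments exact Poisson, at 95%; for a count of 0 the share that 3 counts would make is given too. No test was run between groups. Scripts (Python 3.11.15, pandas 2.3.3, scipy 1.17.1) were tested on simulated data.

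Peaks and gene lists were chosen with earlier results of these data known. Named genes are the 12 peaks of highest −log10 q, those beside the limits, genes of the lists and of the 6 families of highest share (up to 4 each), and genes with peaks at both ends. Values of list genes beyond the first 4 were added after they were seen. Of the listed symbols 12 had no protein-coding entry. A few genes are counted but not reported here by name. Alternatives are given at the end.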

Additional observations from a re-analysis of the deposited data

How the results depend on the processing

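In all 10 alternatives were run. With a q of at most 1e-05 in both lists there were 1021 adriamycin-only peaks at 1014 genes, 90.1% at the start, 89.5% inside the gene, 6.60% of list genes and 18.5% of adriamycin-only peaks at one gene end (20.5% without that limit). With a fold of at least 5 in both the values were 1009 peaks, 1003 genes, 90.5%, 89.6%, 6.76% and 18.3%, with 79.2% of starts CpG-rich and 74.6% of genes longer than the median gene (69.9% without that limit). With lists of equal length they were 540 peaks, 537 genes, 89.3% inside, 4.03% of list genes and 18.1%. A window of 500 bp gave 93.1% at the start, 84.1% inside and 12.9% of list genes, and a window of 2000 bp gave 81.9% at the start. Of all genes 4.63% had a peak with the limit on q, 4.58% with that on fold and 2.45% with equal length. The share of all genes was 7.74% with the window of 500 bp, against 9.70% in the main setting. With the limits on q and fold untreated peaks are dropped too, so peaks with a weaker untreated counterpart enter. The other 3 choices for overlap and fold limit, the summit counted from 0 (2173 peaks, an alternative added after the data were seen) and the summit inside the start sequence (78.0% CpG-rich) stayed within 1.5 times the count or inside the interval. The values added for equal length, q and fold on the one-gene-end share, gene length and start sequence were also chosen after seeing the data. No paired analysis was possible because each group has 1 library and no test was run. Read depth is unknown, and the median peak rested on 13 fragments, so its absence from the untreated list is at that depth only.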

Other observations

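The peaks were unevenly spread over chromosomes. On chromosome 18 82 of 511 genes (16.05%, 12.97 to 19.5%) had one and on chromosome 1 167 of 1204 (13.9%, 11.97 to 15.95%), against 37 of 966 on X (3.83%, 2.71 to 5.24%) and 0 of 256 on Y. Among genes with a CpG-rich start the share was 20.04% on chromosome 1, 10.7% on chromosome 7 and 6.87% on X, against 14.1% over all genes with a CpG-rich start; start sequences of chromosome 18 were not used here. The X chromosome was also low in shared peaks (0.621% of its genes).

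Keratin clusters were among the densest windows of 1 Mb, beside a window on chromosome 6 and one on chromosome 9 with 7 genes each. The window from 99000001 to 100000000 on chromosome 11 held 10 genes with an adriamycin-only peak out of 55, among them Krt12, Krt27 and 5 keratin-associated protein genes (Krtap4-1, Krtap4-2, Krtap4-13, Krtap16-1 and Krtap17-1, hair matrix proteins), out of 56 such genes in the genome (8.93%, below the 9.70% of all genes). The next window on that chromosome held 7 of 41, including the junction gene Jup, and the window from 101000001 to 102000000 on chromosome 15 held 7 of 35, all of them keratins. The keratin-associated genes and these windows were picked after their values were seen. Similar members of such clusters can share reads, and the part of this in single assignments was not tested.

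Peaks at both ends of the same gene were found at 12 genes. Ordered by the −log10 q of the weaker peak, the first 5 were 1700013G24Rik (folds 5.25 at the start and 4.93 at the far end), Gna12, a G protein subunit gene (5.51 and 5.49), Hhipl1 (4.09 and 4.97), Raet1e (4.59 and 4.58) and Vps8 (4.45 and 5.59).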
